A study of Mus musculus with 8 samples.

Results

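The antioxidant genes Sod2, Cat, Nfe2l2 and Nqo1 were followed through peak lists of acetylated histone H3 (H3ac) from a mouse macrophage-like cell line. The lists hold no gene names, so each gene was taken as a window on mouse build GRCm39: chr17:13220000-13242000 for Sod2, chr2:103280000-103322000 for Cat, chr2:75500000-75542000 for Nfe2l2 and chr8:108110000-108135000 for Nqo1. Peaks of the 4 libraries that overlapped were merged into regions, and 21 of the 81544 merged regions lay in the 4 windows. Of these, 3 were in the Sod2 window, 3 in the Cat window, 13 in the Nfe2l2 window and 2 in the Nqo1 window. Regions are numbered within a window from its low-coordinate end, and the region with the highest fold in a window is called its lead region.

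The cells were RAW264.7, an established line of mouse macrophage-like cells, which the labels place in contact with material extracts for 48 h. Extracts of Gel were compared with extracts of CuNZ@Gel, as the treatment labels call them, with 2 H3ac libraries for either; the series title speaks of a sprayable hydrogel carrying a nanozyme, a nanomaterial with enzyme-like activity. The labels name neither the enzymes that it mimics nor separate cultures for the 2 libraries of a group, so a spread between libraries may be technical. No untreated cells and no macrophage activation stimulus are named among the groups, which share the line and the extract time.

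Superoxide dismutase 2, coded by Sod2, turns superoxide into hydrogen peroxide in mitochondria. Catalase, coded by Cat, breaks hydrogen peroxide down, mostly in peroxisomes. Nfe2l2 codes for NRF2, a transcription factor that is held at low levels by KEAP1 and that, under oxidative stress, binds antioxidant response elements; Nqo1, which codes for a quinone reductase, is a standard NRF2 target. Acetylation of histone H3 marks active promoters and enhancers, and a peak of it reports chromatin, not the amount of mRNA or enzyme.

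The promoter sequences are shown because NRF2, the product of 1 of the genes, binds a known element, and the letters show which of the 4 genes carry its core near the start. Each line gives the 250 bases before the RefSeq transcription start, 5′ to 3′ on the gene's strand, from the RefSeq promoter table of build GRCm38.p6. Sod2 is on the plus strand and the other genes are on the minus strand. Capitals mark the GC box GGGCGG and the core of the antioxidant response element TGACNNNGC, both searched on both strands, so CCGCCC is a GC box read on the opposite strand.
Sod2: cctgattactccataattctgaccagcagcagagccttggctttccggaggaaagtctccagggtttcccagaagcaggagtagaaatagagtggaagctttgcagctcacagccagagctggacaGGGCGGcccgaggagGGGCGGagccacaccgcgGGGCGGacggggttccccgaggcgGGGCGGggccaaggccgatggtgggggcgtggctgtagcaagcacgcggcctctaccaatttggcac
Cat: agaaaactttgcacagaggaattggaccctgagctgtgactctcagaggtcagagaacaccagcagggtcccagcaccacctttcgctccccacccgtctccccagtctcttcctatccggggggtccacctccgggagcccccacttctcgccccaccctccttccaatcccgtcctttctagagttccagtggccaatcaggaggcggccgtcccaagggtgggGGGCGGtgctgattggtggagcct
Nfe2l2: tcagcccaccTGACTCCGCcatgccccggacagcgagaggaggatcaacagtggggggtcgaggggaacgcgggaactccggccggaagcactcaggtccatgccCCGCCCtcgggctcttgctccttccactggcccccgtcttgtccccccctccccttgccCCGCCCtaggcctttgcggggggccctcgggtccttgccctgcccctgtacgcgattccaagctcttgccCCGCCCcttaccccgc
Nqo1: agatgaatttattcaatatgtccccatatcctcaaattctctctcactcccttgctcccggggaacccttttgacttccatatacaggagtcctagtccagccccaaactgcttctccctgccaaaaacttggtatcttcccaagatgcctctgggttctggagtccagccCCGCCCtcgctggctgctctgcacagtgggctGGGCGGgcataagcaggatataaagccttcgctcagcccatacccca
The element core was present in 1 of these sequences, Nfe2l2, starting at position -240 counted back from the start, and the same search found it in 10.2% of 32851 mouse promoters of this length. Elements further than 250 bases upstream were not searched for, so a gene without a match here may still carry the element. A GC box occurred 4 times for Sod2, once for Cat, 3 times for Nfe2l2 and 2 times for Nqo1, and in 32.7% of all promoters. The NF-kB pattern GGGNNNNNCC, found in 45.8% of all promoters, matched in Sod2 and Cat and not in Nfe2l2 or Nqo1. Its matches are not in capitals, and some of those in Sod2 overlap GC boxes. A match is a description of letters only, and GRCm39 start sites were not used here, so whether these sequences lie under the peaks was not checked.

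The deposited lists held 58612 and 60483 peaks for Gel replicates 1 and 2 and 40075 and 34693 for CuNZ@Gel replicates 1 and 2. Read totals were not used here; the background of each list, the number of fragments expected at one base, was 4.62 and 4.28 for Gel and 3.45 and 2.46 for CuNZ@Gel. Depth and treatment therefore moved together, and they cannot be told apart. Ratios of fold and width were accordingly set beside the 1000 regions closest in Gel fold, among regions with peaks in all 4 libraries. Ratios of height, the summit fragments over the list's background, were set beside the 1000 closest of these in Gel height instead. These sets leave out regions without a peak in a CuNZ@Gel library. Shares of like regions with a CuNZ@Gel peak were taken over the 1000 closest in Gel fold among regions with peaks in both Gel libraries. The fold is the authors' own value per peak. For nearly all peaks it equalled the summit fragments plus 1 over the background plus 1. At the same height, this gives a lower fold in a list with a lower background, as the CuNZ@Gel lists have. Height holds no added 1. Folds from different lists are compared here as a description with no test.

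The Sod2 window had 1 H3ac region in all 4 libraries, at chr17:13226854-13228168. Its fold was 8.19 and 9.84 in Gel and 9.22 and 8.39 in CuNZ@Gel, so the groups overlapped, with means of 9.02 ± 1.165 (SD, n = 2) and 8.80 ± 0.588 (SD, n = 2). The peak covered 1309 and 1159 bp in Gel and 951 and 1082 bp in CuNZ@Gel, which is narrower in both CuNZ@Gel libraries. The 4 summits lay within 189 bp of one another.

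Most regions of like Gel fold had a lower fold in CuNZ@Gel, with a median log2 ratio of CuNZ@Gel to Gel of -0.40 and a range of -0.83 to 0.03 between the 5th and 95th percentiles. The Sod2 lead region, at -0.03 with a replicate SD of 0.15, was above 92.5% of them. The counts behind these folds were 45, 51, 40 and 28 fragments at the summit. Scaled to each list's background, CuNZ@Gel held 1.07 times the Gel height. The 95% interval for counting error alone, 0.771 to 1.47, includes the median of the regions of like Gel height, 0.807.

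The other Sod2 regions were weaker. Region 1, just beside the lead region on its low-coordinate side, had folds of 4.45 and 3.75 in Gel, no peak in CuNZ@Gel replicate 1 and a fold of 5.50 in CuNZ@Gel replicate 2, so the CuNZ@Gel libraries disagreed with each other. Of like regions, 37.6% also had a peak in a single CuNZ@Gel library. Region 3 was listed in CuNZ@Gel replicate 2 alone, with a fold of 3.18.

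The Cat window had a stronger region in all 4 libraries, at chr2:103313512-103316157. The folds were 12.6 and 11.9 in Gel and 12.6 and 12.4 in CuNZ@Gel, with means of 12.3 ± 0.511 (SD, n = 2) and 12.5 ± 0.146 (SD, n = 2), and the groups overlapped. The summits of the strongest peaks lay within 36 bp. Covered width was 2419 and 2639 bp in Gel and 2404 and 2166 bp in CuNZ@Gel; the single peak of each Gel library was listed as 2 peaks in each CuNZ@Gel library.

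Compared with the 1000 regions of like Gel fold, whose median log2 ratio was -0.47 with a 5th to 95th percentile range of -0.94 to -0.07, the Cat lead region at 0.02 with a replicate SD of 0.04 was above 97.9%. The summits held 70, 62, 55 and 43 fragments. Scaled to background, the CuNZ@Gel height was 1.12 times the Gel height, with a 95% counting interval of 0.853 to 1.46. The median of the regions of like Gel height, 0.776, lies below that interval. The interval covers counting error in these libraries only, and the gene was chosen with earlier results known, so this describes where the region stood and is not a test of the treatment.

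The other Cat regions were weaker. Region 3 had folds of 3.56 and 3.03 in Gel and no CuNZ@Gel peak, which was also the case for 63.9% of regions of like Gel fold. Region 1 was listed in CuNZ@Gel replicate 2 alone, with a fold of 4.05.

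**Figure D1:**
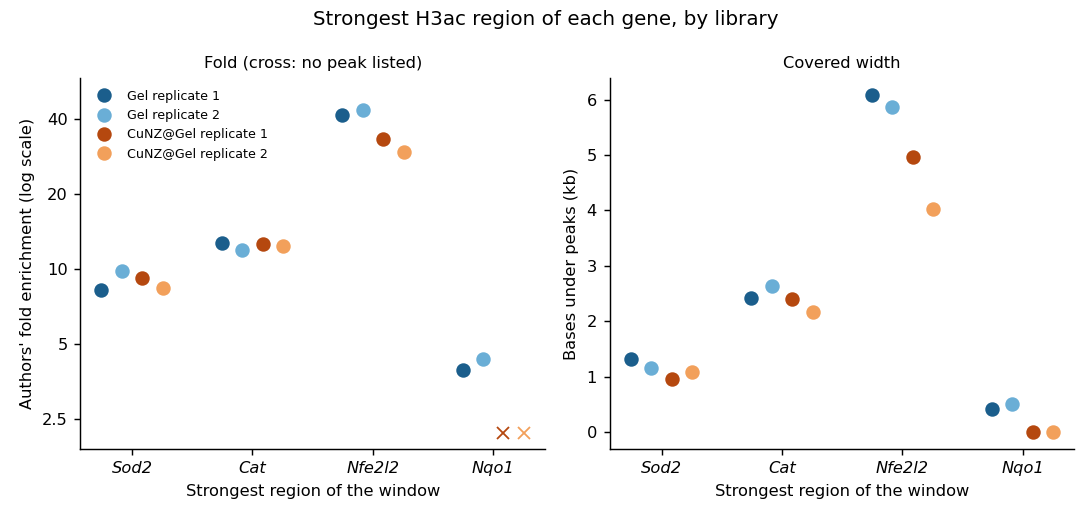
The authors' fold on a log axis (left) and the bases under peaks in kb on a linear axis (right) for the strongest region of each window, with 1 point per library and a cross where no peak was listed. Sod2 and Cat folds overlap between Gel and CuNZ@Gel, both Nfe2l2 folds are lower in CuNZ@Gel, and Nqo1 has no CuNZ@Gel peak.

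Nfe2l2 stood out in extent. Its window was covered by H3ac peaks over 16861 and 15862 bp in the Gel libraries and 10821 and 9890 bp in the CuNZ@Gel libraries, means of 16361.5 ± 706 and 10355.5 ± 658 bp (SD, n = 2 each) with no overlap between groups. In Gel, this ranked 20 among 17366 genome tiles of the same length that were covered in both Gel libraries. The separation between groups was common: 74.5% of single regions with peaks in all 4 libraries had both CuNZ@Gel widths below both Gel widths. No such share was computed for tiles. The peaks ran over 25524, 25358, 24939 and 24166 bp from first to last, and the covered share of that span was 66.1% and 62.6% in Gel and 43.4% and 40.9% in CuNZ@Gel. The run was slightly shorter in CuNZ@Gel, and more of it lay in gaps.

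The lead region at chr2:75528664-75534879 was among the strongest peaks of each list, with a fold of 41.4 and 43.5 in Gel and 33.1 and 29.5 in CuNZ@Gel. The means were 42.5 ± 1.51 and 31.3 ± 2.51 (SD, n = 2 each), and both CuNZ@Gel libraries lay below both Gel libraries. By fold it nevertheless ranked 192 and 136 in the Gel lists and 80 and 102 in the shorter CuNZ@Gel lists. The share of peaks with a fold at or below it was 99.67% and 99.78% in Gel. In CuNZ@Gel this share was 99.81% and 99.72%, so the groups overlapped. The summits lay within 94 bp. Covered width was 6077 and 5871 bp in Gel and 4954 and 4030 bp in CuNZ@Gel, and the longest single peak measured 6077 and 4513 bp against 3524 and 3632 bp.

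Against like regions the Nfe2l2 lead region did not stand low. Its log2 ratio was -0.44 with a replicate SD of 0.09, while the like-region median was -0.63, and it was above 84.6% of them; regions that strong are few, and the like set ran from a Gel fold of 26.8 to 83.3. Its height in CuNZ@Gel was 0.785 times that in Gel, with a 95% counting interval of 0.671 to 0.918. That interval includes the median of the regions of like Gel height, 0.702. The summits held 245, 229, 146 and 101 fragments, the best-counted values of the 4 genes.

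The regions around it differed in fold ratio, but the 95% counting intervals of their height ratios overlapped one another and that of the lead region. These were 0.737 to 1.21 for region 2, 0.591 to 1.40 for region 11 and 0.446 to 0.985 for region 13. Each of these 3 includes the median of its regions of like Gel height. Region 2, near the low-coordinate end of the run at chr2:75512549-75515882, had folds of 15.1 and 16.8 in Gel and 16.0 and 11.3 in CuNZ@Gel, which overlap. With a log2 ratio of -0.23 and a replicate SD of 0.26, it was above 90.8% of like regions. It covered 3334 and 2943 bp in Gel and 2047 and 2135 bp in CuNZ@Gel. Region 3, next to it at chr2:75516073-75517703, went the other way: 7.82 and 9.27 in Gel against 5.17 and 4.63 in CuNZ@Gel. The log2 ratio of -0.80 was above 7.7% of like regions, whose median was -0.40. Summits of its highest peaks spread over 605 bp. In CuNZ@Gel replicate 2 the highest peak was a separate one, and the peak at the shared site had a fold of 4.34. The height ratio of region 3 was 0.575, with a 95% counting interval of 0.383 to 0.848. That interval includes the median of the regions of like Gel height, 0.808.

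Region 13, beside the lead region on the high-coordinate side, had folds of 8.55 and 7.95 in Gel and 5.62 and 4.63 in CuNZ@Gel, a log2 ratio of -0.69 against a like median of -0.40. It was the exception in width, with 1642 and 1330 bp in Gel and 1043 and 1599 bp in CuNZ@Gel, which overlap. Region 11, on the other side, had folds of 5.70 and 5.87 in Gel and 4.50 and 5.50 in CuNZ@Gel. Its log2 ratio of -0.21 was above 58.8% of like regions, but it covered 1933 and 2137 bp in Gel and 1086 and 675 bp in CuNZ@Gel, a width ratio of 0.433 that was above 13.8% of like regions. Summits lay within 469 bp of one another in region 13 and within 306 bp in region 11.

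The remaining Nfe2l2 regions were weak. Region 1 had folds of 3.90 and 4.16 in Gel, 3.37 in CuNZ@Gel replicate 1 and no peak in replicate 2. Region 5 had folds of 2.49 and 3.22 in Gel and no CuNZ@Gel peak, as had 76% of like regions. Region 8 had folds of 3.28 and 3.13 in Gel and 4.63 in CuNZ@Gel replicate 2, with no peak in CuNZ@Gel replicate 1. Regions 4, 6, 7, 9 and 10 were listed in 1 library or in 1 of each group, with peaks of 191 to 339 bp and folds of 2.83 to 3.56.

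**Figure D2:**
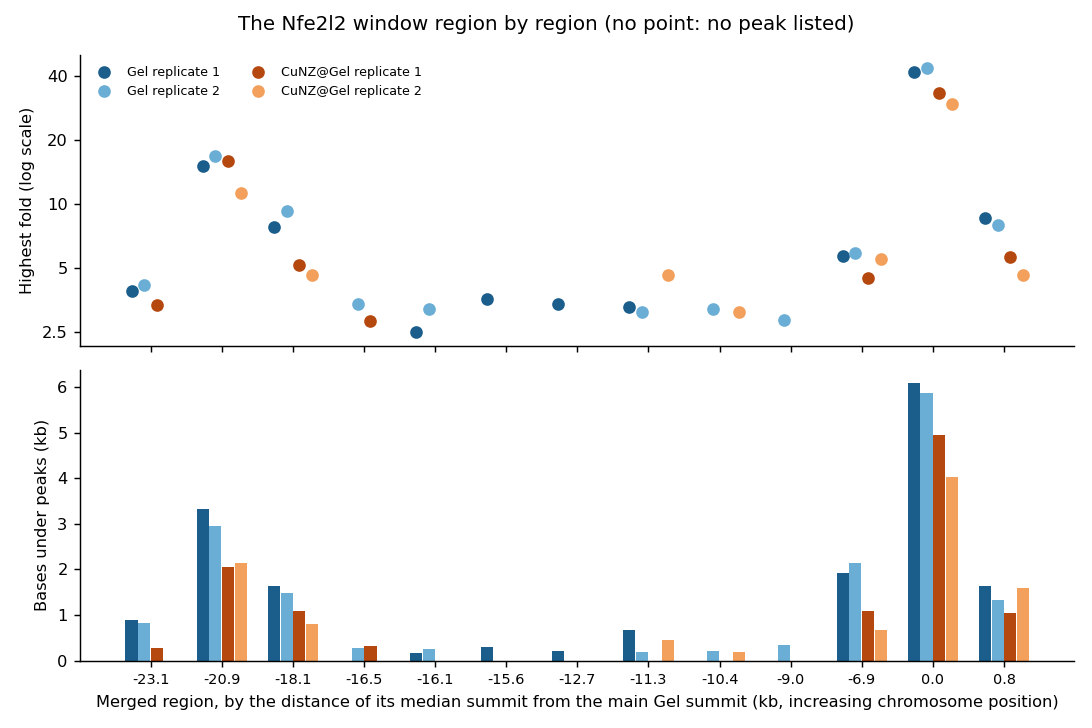
Highest fold on a log axis (top, points) and bases under peaks in kb (bottom, bars from 0) of the 13 Nfe2l2 regions in each library, in chromosome order and labelled with their distance in kb from the main Gel summit. The tallest points and bars in every library are at the main summit, a second cluster lies at the low-coordinate end, and the regions between are weak or unlisted in some libraries.

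Nqo1 had the least covered width of the 4 genes. Region 2, at chr8:108130129-108130647, was listed in both Gel libraries with folds of 3.92 and 4.35, over 419 and 507 bp, on 21 and 22 fragments, and in neither CuNZ@Gel library. The Gel summits were 9 bp apart. Region 1 was listed in Gel replicate 1 alone, over 168 bp with a fold of 3.03.

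A missing peak means that the signal was under the threshold of the list, not that H3ac was absent. Of 1000 regions with like Gel fold, 30.2% had no CuNZ@Gel peak, 36.1% had 1 and 33.7% had both, so the pattern at Nqo1 region 2 was common. At the mean Gel height the CuNZ@Gel libraries would have given a −log10 p of 7.32 and 5.63, above the lowest listed values of 3.37 and 3.41. That calculation assumes the library background at the site, and was added after the values were seen. Region 2 entered it through its Gel peaks, which favours high Gel values, so the calculation cannot show whether the signal fell.

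**Figure D3:**
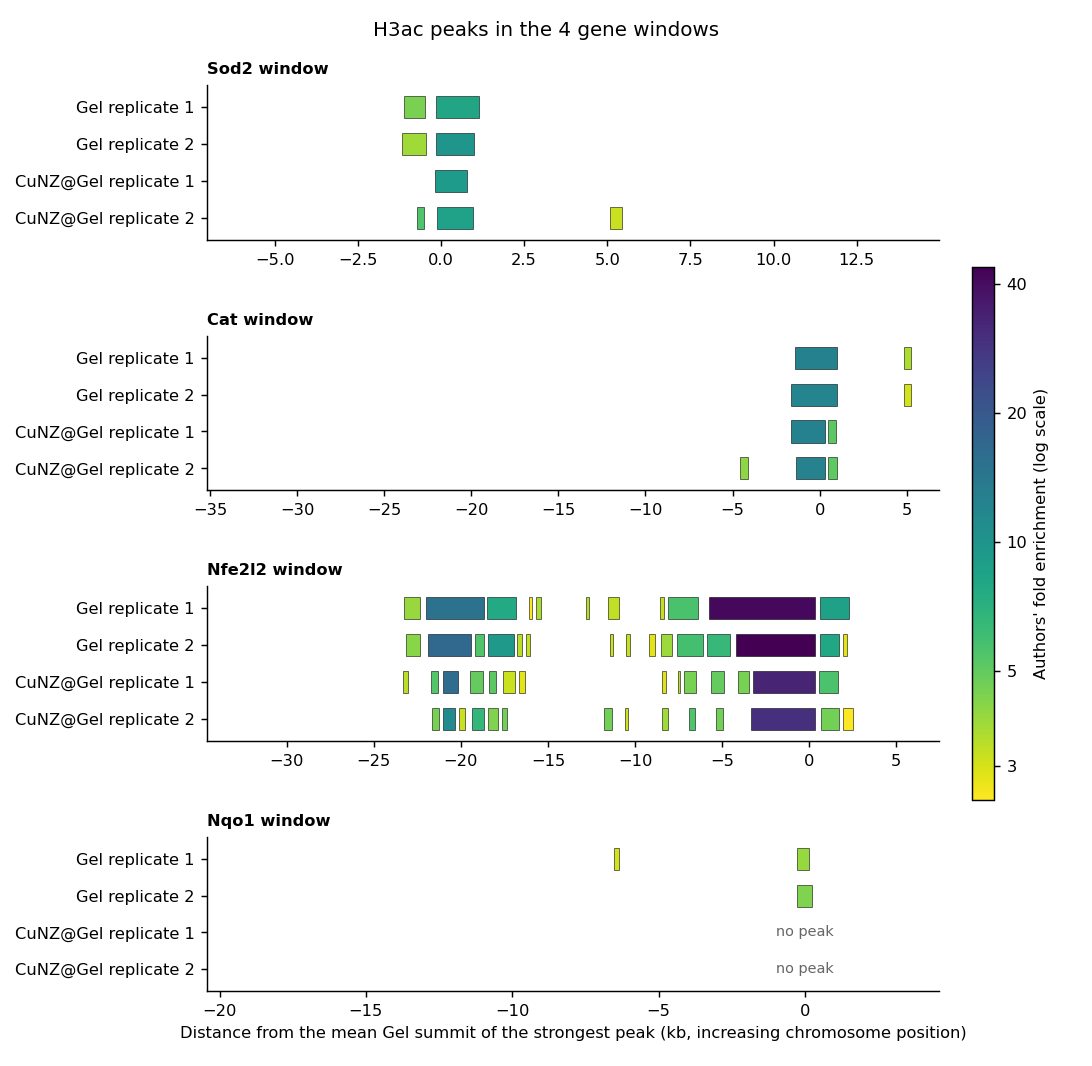
Peaks of each library in the 4 windows, by distance in kb from the mean Gel summit of the strongest peak; bar length is the peak's width and colour its fold on a log scale. Nfe2l2 carries a run of peaks in all 4 libraries, Sod2 and Cat carry their strongest peak at the same place in all 4, and Nqo1 has bars in the Gel libraries alone.

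Counted over the windows, 13 of the 21 regions had a peak in both Gel libraries. Of these, 7 had a peak in both CuNZ@Gel libraries (Sod2 1, Cat 1 and Nfe2l2 5), against 55.7% of all 39317 such regions, and 3 had none (1 each in Cat, Nfe2l2 and Nqo1), against 24.9% of all. No region of the windows had peaks in both CuNZ@Gel libraries without a Gel peak. These shares are near the background, so they say nothing particular about the 4 genes. The count of 3 depends on the lists: with each list cut to the length of the shortest it was 1 of 10, Nqo1 region 2, against 10.5% of all, and under a stricter threshold, with only the peaks scoring above the median of their list, it was 0 of 8, against 26.9%.

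**Figure D4:**
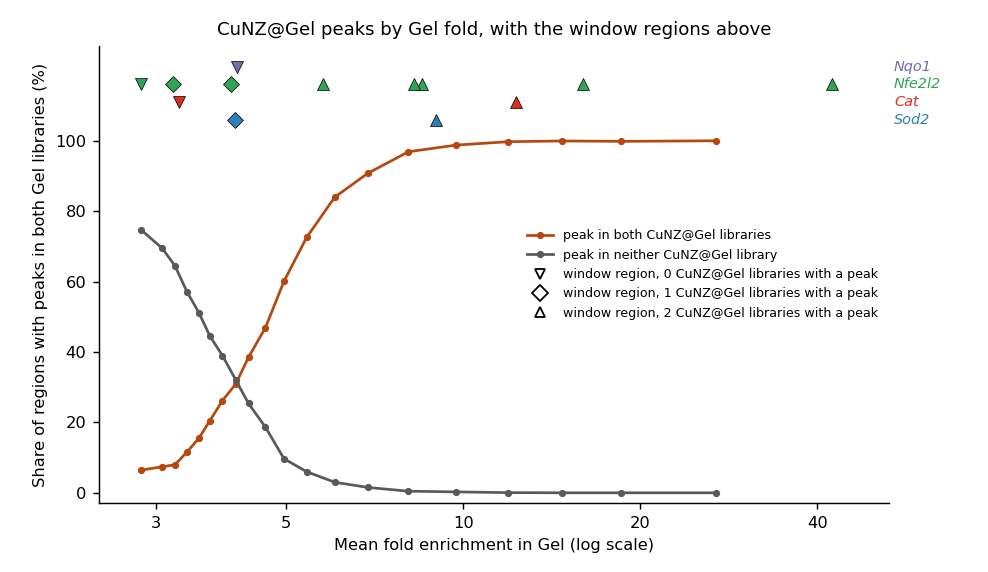
Percent of regions with a peak in both CuNZ@Gel libraries (orange line) or in neither (grey line) against mean Gel fold on a log axis, over all regions with peaks in both Gel libraries; the 13 regions of the windows stand above as symbols, by gene colour, with the shape giving the number of CuNZ@Gel libraries with a peak. Nqo1 region 2 stands where the lines cross, and the lead regions of the other genes stand where nearly all regions have both peaks.

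Among the 7 regions with peaks in all 4 libraries, 6 had both CuNZ@Gel widths below both Gel widths (Sod2 1, Cat 1, Nfe2l2 4 of 5), against 74.5% of all such regions, and 0 had both above, against 1.26%. The fold was lower without overlap in 4 of the 7, against 63.2% of all, and higher in 0, against 4.55%. The 4 regions with lower fold were all Nfe2l2 regions, numbers 3, 11, 12 and 13, while the Sod2 and Cat lead regions overlapped between groups in fold. By height, regions 3, 12 and 13 were also lower without overlap, but region 11 was not. Its height was 5.51 and 7.33 in CuNZ@Gel, and the second value was above both Gel heights. The Cat lead region was higher by height without overlap, at 15.17 and 14.47 in Gel and 15.96 and 17.5 in CuNZ@Gel. The shares by width and by fold are close to the background of the whole series.

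**Figure D5:**
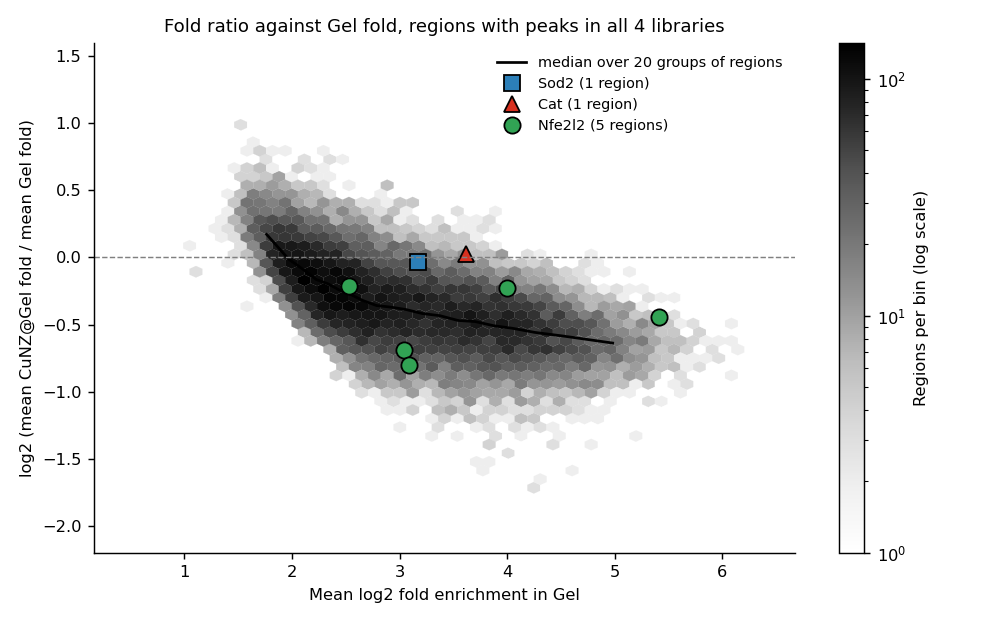
Log2 ratio of mean CuNZ@Gel fold to mean Gel fold against mean log2 Gel fold for all regions with peaks in all 4 libraries (grey, darker where more regions fall), with the median as a black line and the 7 regions of the windows as coloured symbols. Sod2 at -0.03 and Cat at 0.02 lie above the line, and Nfe2l2 region 3 at -0.80 lies below it.

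Over the 4 windows the number of peaks was 17 and 20 in Gel and 17 and 20 in CuNZ@Gel, so the counts did not separate the groups (exact two-sided permutation p = 1). The covered width was 22232 and 21295 bp in Gel and 14176 and 14118 bp in CuNZ@Gel, a fall to 65.0% of the Gel mean. With 2 libraries a group no result can go below p = 0.333, which is the exact two-sided permutation p of the width difference over the windows together and in each window. Relative to Gel, CuNZ@Gel covered 67.6% for Sod2, 85.0% for Cat, 63.3% for Nfe2l2 and 0% for Nqo1, and the 1000 genome tiles nearest in Gel coverage had medians of 61.7%, 60.0%, 61.0% and 34.1%. For Nfe2l2 these tiles ran from 6920.5 to 25098.5 bp and nearly all were covered less than its window, so they are a poor match. Cat was above 94.7% of its nearest tiles, Sod2 above 60.6% and Nfe2l2 above 56.9%, and 23.1% of the tiles like Nqo1 had no CuNZ@Gel peak; the tile comparison was added after the values were seen.

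Covered width per region was tested with limma over all 43962 regions listed in at least 2 libraries, with Benjamini-Hochberg adjustment. No region, and so 0 of the 15 tested in the windows, passed an adjusted p of 0.05 in either direction (0% narrower and 0% wider), the smallest adjusted p being 0.0502, while 19015 were narrower and 287 wider at an unadjusted p under 0.05. The median change over all regions was -293 bp. For the lead regions the change was -217.5 bp (SE 107, adjusted p = 0.204) for Sod2, -244 bp (SE 158, adjusted p = 0.298) for Cat and -1482 bp (SE 387, adjusted p = 0.0717) for Nfe2l2.

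Nqo1 region 2 had a change of -463 bp (SE 77.0, adjusted p = 0.0502 by limma), and it entered the test only through its Gel peaks, so a difference was built in. The largest Nfe2l2 changes beside the lead region were -1154.5 bp for region 11 and -1047.5 bp for region 2, both with an adjusted p of 0.0502 by limma. When the test was limited to regions with a peak in all 4 libraries, 21907 of 21909 were tested, since regions of the same width in every library were left out. Of these, 3923 were called narrower, which is 17.9%, and 13 wider. Of the 7 window regions 2 were called narrower, Nfe2l2 regions 2 and 11, with adjusted p of 0.0345 and 0.0305 by limma. Leaving out Gel replicate 1 or Gel replicate 2 also gave calls, 1169 and 1315 narrower. These were 3.55% of 32962 and 3.98% of 33009 regions tested, with 0 of 15 and 2 of 10 window regions among them, so the count of 0 depends on these choices. Under the stricter threshold 34.3% of 24398 regions and 5 of 8 window regions were called narrower. A peak removed by that threshold counts as 0 bp. Nfe2l2 regions 3 and 13 kept a peak in both Gel libraries there and lost those of CuNZ@Gel replicate 2. Nfe2l2 region 11 also kept a peak in both Gel libraries and lost those of CuNZ@Gel replicate 1. The cut can therefore itself make a width difference.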

How the data were processed

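H3ac chromatin immunoprecipitation libraries of RAW264.7 cells, 2 with Gel and 2 with CuNZ@Gel, were analysed from 4 deposited per-library peak lists; 4 input libraries were not used here. The submitters' processing notes name MACS2 2.2.8, SAMtools 1.17, deepTools 3.5.6, fastp and build GRCm39; which aligner and which peak settings they used is not given in the sources used here. Per the labels' protocols, fixation took 10 min in 1% formaldehyde and fragments measured 150 to 350 bp. The shared treatment protocol speaks of CuNZ@Gel extracts, so the Gel group is taken from its treatment label. The deposited columns hold a fold enrichment ratio over background, a score equal to 10 times the −log10 q for nearly all peaks, and −log10 p and −log10 q values. Peaks were called per library: each of the 2 deposited group lists equals, in 100% of its entries, the overlap of its 2 replicate lists (bedtools 2.31.1), and was used for that check only.

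Peaks overlapping by at least 1 bp across lists were merged into regions, and regions were assigned to the 4 gene windows. The files hold no counts, so summit fragments and background were solved from each peak's fold and p, at a relative tolerance of 0.0001, for at least 99.9925% of the peaks in each list. Exact 95% intervals on these fragments (scipy 1.17.1), Poisson for a summit and binomial for a ratio, cover counting error only. A region's fold in a library is that of its highest peak, its width the summed bp of its peaks, and 0 where no peak is listed. Width was tested with limma 3.58.1 (R 4.3.3, trend and robust), and the same steps were also run on simulated widths. Window sums were tested with an exact permutation test that enumerated every assignment of the libraries to groups (numpy 2.4.6). By the rule for named genes, the text names the 4 genes and every merged region of their windows, numbered by order along the chromosome.

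The 4 genes, the windows and the lists were chosen with earlier results of these data known. A wider antioxidant pathway list and a list of macrophage markers were not used, because no GRCm39 annotation was used here. Gene order in the RefSeq GRCm38 table puts Sod2 between Wtap and Gpr31b, Cat between Elf5 and Abtb2, Nfe2l2 between Hnrnpa3 and Agps, and Nqo1 between Nfat5 and Nob1. Regions covered to the same width in every library were left out of the limma test. Alternatives changed the peak threshold, list length, overlap, fold summary, like-region number, test options and libraries included.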

Additional observations from a re-analysis of the deposited data

How the results depend on the processing

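Covered width over the 4 windows was lower in CuNZ@Gel under every alternative that was run: the difference was -8765.5 bp under a stricter threshold (scores above the median of their list), -5819 bp with each list cut to the length of the shortest, and between -8085 and -7148 bp without 1 library. The difference in peak number was 6 with equal list lengths and ranged from -1.5 to 1.5 when 1 library was left out. For the Cat lead region the log2 ratio was 0.17 by summit height over library background and -0.17 by the width-weighted mean fold, and for the Nfe2l2 lead region the width-weighted ratio was -0.56. Leaving out 1 library gave log2 ratios of -0.16 to 0.10 for Sod2, -0.02 to 0.07 for Cat and -0.53 to -0.36 for Nfe2l2. Over 10 alternatives the percent of like regions below was 84.4 to 95.8 for Sod2, 91.6 to 98 for Cat and 75.1 to 91.1 for Nfe2l2.

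The limma count of 0 narrower and 0 wider regions became 3923 and 13 over regions in all 4 libraries, 3463 and 14 without trend and robust fitting, and 8365 and 37 under the stricter threshold, where 5 of the 8 window regions tested were called narrower, against 34.3% of the 24398 regions tested. Without 1 library it ranged from 0 to 1315 narrower and from 0 to 6 wider; the lone library of a group is then assumed to vary like the other pair, and the cause of these moves was not tested. Nothing shows that the replicate numbers pair libraries: across 43962 regions, the deviations of libraries that share a number had a correlation of 0.00639, and with the replicate number as a block limma again called 0 regions narrower and 0 wider, with a smallest adjusted p of 0.0595. Nqo1 region 2 was kept in Gel replicate 2 alone under the stricter threshold. A peak removed by that threshold counted as 0 bp in the limma test, so the cut can itself make a width difference.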
